A study of Saccharomyces cerevisiae with 4 samples.

Results

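The 10 yeast genes described here encode the enzymes that turn glucose 6-phosphate into UDP-glucose and from there into the storage carbohydrates trehalose and glycogen, and the enzyme that releases glucose units from glycogen. They were taken by systematic name, 10 of the 6600 coding sequences in the table, and the set was chosen by the lower count of PGM2 in the mutant, the other 9 being its neighbours in the pathway. The comparison of mutant with wild type is therefore given for these genes as a description, with no test. All 10 passed the filter on low counts.

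Phosphoglucomutase, made from the paralogs PGM1 and PGM2, exchanges glucose 6-phosphate and glucose 1-phosphate. UGP1 encodes the pyrophosphorylase that makes UDP-glucose from glucose 1-phosphate. TPS1 and TPS2 encode trehalose-6-phosphate synthase and trehalose-6-phosphate phosphatase, which act in a complex with the larger regulatory subunits TSL1 and TPS3. GSY1 and GSY2 encode the glycogen synthases, and GPH1 the glycogen phosphorylase. In budding yeast many of these genes are known to be induced when growth slows or stress sets in, through the transcription factors Msn2 and Msn4, which bind the stress response element (STRE) of promoters.

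Ribosome footprints, the mRNA fragments that ribosomes shield from nuclease, were counted per coding sequence in Saccharomyces cerevisiae strain 74D-694. The wild type (WT) had 2 libraries. The mutant group also had 2 libraries, from a strain in which an in-frame version stands in place of the frameshifted OAZ1, whose product is the antizyme of ornithine decarboxylase. Both groups were grown to mid-exponential phase in a synthetic medium, with cycloheximide at 50 µg/mL to hold ribosomes on mRNA, and the labels name neither the sugar in the medium nor whether replicates were separate cultures. P-values thus measure only the spread between these libraries, which may be technical, and without matched mRNA libraries a change in ribosomes per mRNA and a change in mRNA cannot be told apart.

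The WT libraries held 29671498 counts (replicate 1) and 10202557 counts (replicate 2), and the mutant libraries 7571371 counts (replicate 1) and 2826895 counts (replicate 2). OAZ1 had 12.7 and 10.7 CPM (counts scaled to a library total of 1e6, here with TMM normalization) in WT and 20.5 and 18.1 CPM in mutant, a log2 fold change of 0.73 (SE 0.22; edgeR adjusted p = 0.755). Of the 4 libraries, WT replicate 1 was the odd one. Taking the 4603 genes that averaged 100 or more counts, the log2 difference had an SD of 0.509 between the WT libraries, 0.297 between the mutant libraries and 0.223 between WT replicate 2 and mutant replicate 1. All 10 of a list of endoplasmic reticulum lumen chaperones were highest in WT replicate 1, as were 1789 of all 5233 genes tested. Their summed level was 3567 CPM there and 1371 to 1818 CPM in the others. The list was chosen with earlier results of these data known, so it describes this library and is no independent support.

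The sequence before the start codons is shown for 5 of the genes, because it holds a feature the genes share and PGM2 and PGM1 differ in. The STRE core AGGGG, or CCCCT on the other strand, was searched in the 800 bases before each start codon of the R64 reference assembly of NCBI RefSeq, the assembly also called sacCer3. It was made from strain S288C, and the sequence of 74D-694 was not analysed here. The stretches read 5′ to 3′ in the direction of the gene, with the core in capitals, and each runs from 6 bases before the first to 6 bases after the last core that lies outside annotated genes. That of PGM1 instead covers the same span as that of PGM2, from base -412 to base -206 counted from the start codon, in which PGM2 holds 5 cores and PGM1 holds 1.
PGM2, chrXIII:477812-478018, minus strand: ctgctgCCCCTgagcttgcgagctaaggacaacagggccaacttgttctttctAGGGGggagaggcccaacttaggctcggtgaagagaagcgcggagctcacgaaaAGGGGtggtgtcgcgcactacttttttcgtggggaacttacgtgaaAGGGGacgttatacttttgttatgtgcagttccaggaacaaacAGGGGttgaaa
PGM1, chrXI:203129-203335, plus strand: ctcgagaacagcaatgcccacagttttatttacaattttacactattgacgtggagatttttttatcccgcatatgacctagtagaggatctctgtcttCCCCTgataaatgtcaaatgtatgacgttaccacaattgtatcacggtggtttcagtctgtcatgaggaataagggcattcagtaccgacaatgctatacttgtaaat
TPS1, chrII:490621-490757, minus strand: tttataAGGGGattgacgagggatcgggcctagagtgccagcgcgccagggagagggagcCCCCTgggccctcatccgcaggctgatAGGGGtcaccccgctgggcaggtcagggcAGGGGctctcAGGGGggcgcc
TSL1, chrXIII:70387-70469, plus strand: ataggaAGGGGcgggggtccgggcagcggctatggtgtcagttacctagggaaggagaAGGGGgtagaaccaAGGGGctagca
GPH1, chrXVI:860755-860990, plus strand: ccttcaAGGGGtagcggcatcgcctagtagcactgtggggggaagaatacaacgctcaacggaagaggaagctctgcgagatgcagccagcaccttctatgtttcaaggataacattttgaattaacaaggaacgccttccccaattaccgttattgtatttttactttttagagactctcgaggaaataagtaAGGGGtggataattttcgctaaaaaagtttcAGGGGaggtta

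PGM2 had 7 cores in its window, a count reached by 2 of the 6003 windows of all genes (0.0333%). TPS1 and TSL1 had 6 cores each, UGP1 and TPS2 had 5 each, PGM1 and GPH1 had 3 each, and TPS3, GSY1 and GSY2 had 2 each. Of all windows, 48.2% held at least 1 core, 16.2% at least 2 and 4.56% at least 3. Some of these cores lie inside a neighbouring annotated gene. For PGM1 that was true of 2 of 3, both within a tRNA gene, and for UGP1 of 4 of 5, all within AIM26. Counting only cores outside annotated genes, all 10 genes had at least 1, against 33.2% of windows, and 8 of 10 had at least 2, against 9.38% of windows. PGM2, TPS1 and TPS2 had 5 such cores, which 0.3% of windows reached, whereas PGM1 and UGP1 had 1. A match describes these letters in this window and does not show that a factor binds there. With 5 cores outside genes, PGM2, TPS1 and TPS2 had log2 fold changes (mutant minus WT) of -1.59, -0.17 and -0.17. With 1 such core, PGM1 and UGP1 had 0.28 and -0.11, and with 2, TPS3, GSY1 and GSY2 had -0.10, -0.38 and -0.36. A relation between core counts and these values was not tested.

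**Figure D1:**
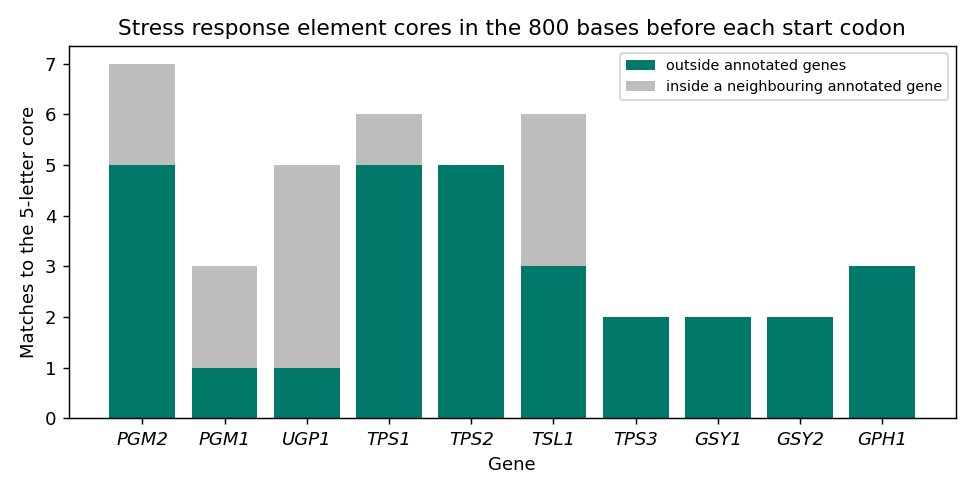
Matches to the STRE core (AGGGG on either strand) in the 800 bases before the start codon of each gene, split into those outside annotated genes and those inside a neighbouring annotated gene. PGM2, TPS1 and TPS2 have 5 outside annotated genes, and PGM1 and UGP1 have 1.

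PGM2 was the one gene of the set whose groups lay far apart. PGM2 (YMR105C), the more abundant phosphoglucomutase of WT, lies on the minus strand of chromosome XIII from 475897 to 477606 as a single coding exon of 1710 bases. It had 8768 and 2046 counts in the WT libraries, replicate 1 first, as against 735 and 185 counts in the mutant libraries. On the normalized scale these were 293, 199, 94.3 and 68.4 CPM in that order, so both mutant libraries were below both WT libraries, the lowest WT value being 2.11-fold above the highest mutant value. The group levels were 246 ± 66.5 CPM in WT against 81.4 ± 18.3 CPM in mutant (SD, n = 2 each). The log2 fold change was -1.59 (SE 0.26), or 33.3% of the WT level. This is the value that chose the set. From the lowest log2 fold change upward PGM2 ranked 17 among the 5233 genes tested. Leaving out WT replicate 1 or 2 gave -1.27 or -1.83, and leaving out mutant replicate 1 or 2 gave -1.84 or -1.38.

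PGM1 (YKL127W; chromosome XI, plus strand, 203541 to 205253), the paralog that catalyses the same reaction, did not share this order. Its levels were 135 and 170 CPM in WT against 200 and 170 CPM in mutant, with WT replicate 1 lowest, mutant replicate 1 highest and the groups overlapping. The log2 fold change was 0.28 (SE 0.19), the single value of the set above 0.

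Within each library the balance between the paralogs could be read with no normalization. PGM2 took 68.5% of the counts of the pair in WT replicate 1 (95% Wilson interval 67.7 to 69.3%) and 54% in WT replicate 2 (52.4 to 55.5%). In mutant replicates 1 and 2 it took 32.1% (30.2 to 34%) and 28.7% (25.4 to 32.3%). PGM2 thus held the larger part in both WT libraries and the smaller part in both mutant libraries, and WT replicate 1 differed from WT replicate 2 by more than counting error. Per base of coding sequence the log2 ratio of PGM2 to PGM1 was 1.12 and 0.23 in WT replicates 1 and 2, as against -1.08 and -1.31 in mutant replicates 1 and 2. The 2 paralogs together had 428 and 369 CPM in WT against 294 and 238 CPM in mutant, again with no overlap. Since PGM2 chose the set, these ratios are a description too.

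In the reference sequence a footprint of full length could match only 1 of the paralogs exactly. Their proteins of 569 and 570 residues were identical at 79.1% of aligned positions, yet none of the 28-base words of either coding sequence occurred in any other coding sequence of the reference, where 28 bases is about the length of a footprint. The longest run common to both was 23 bases, at coding positions 715 to 737 of PGM2 (chrXIII:476870-476892) and 718 to 740 of PGM1 (chrXI:204258-204280), and is shown because a footprint would have to be this short to fit both.
Longest run shared by PGM2 and PGM1: gttgatgaatttggtttaccggc
The share of 28-base words found elsewhere was 0% for the other 8 genes as well, and none of the 10 overlapped another gene of the reference annotation. Counted coding sequences with no entry in that annotation were outside both checks.

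**Figure D2:**
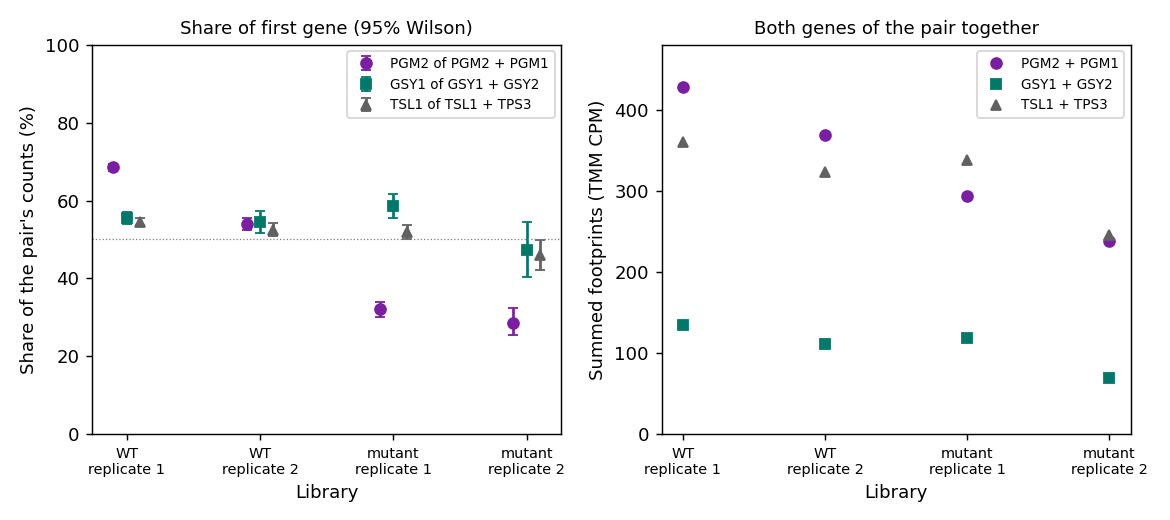
Left, share of each paralog pair's counts held by the first gene in each library, with 95% Wilson intervals that cover counting error only. Right, summed level of both genes in TMM CPM. PGM2 goes from 68.5% and 54% of its pair in WT to 32.1% and 28.7% in mutant.

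UGP1 (YKL035W; chromosome XI, plus strand, 369891 to 371390), which draws on the glucose 1-phosphate that phosphoglucomutase makes, was nearly level across the libraries. It had 671 and 606 CPM in WT against 593 and 592 CPM in mutant. The mutant libraries were below both WT libraries, but by a margin of 1.02-fold, and the log2 fold change was -0.11 (SE 0.14). Its range over the 4 libraries, 0.18 on the log2 scale, was the narrowest of the set, while that of PGM2 was 2.10.

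Of the trehalose enzymes, the synthase TPS1 (YBR126C; chromosome II, minus strand, 488905 to 490392) had 524 and 549 CPM in WT against 505 and 447 CPM in mutant, a log2 fold change of -0.17 (SE 0.15). The phosphatase TPS2 (YDR074W; chromosome IV, plus strand, 593893 to 596583) had 411 and 350 CPM in WT against 394 and 283 CPM in mutant, a log2 fold change of -0.17 (SE 0.21). In TPS1 the groups were apart by 1.04-fold, and in TPS2 mutant replicate 1 lay between the WT libraries. The regulatory subunit TSL1 (YML100W; chromosome XIII, plus strand, 70624 to 73920) had 197 and 170 CPM in WT against 176 and 113 CPM in mutant (log2 fold change -0.34, SE 0.24). Its paralog TPS3 (YMR261C; chromosome XIII, minus strand, 790205 to 793369) had 164 and 154 CPM in WT against 163 and 132 CPM in mutant (-0.10, SE 0.17). For both subunits mutant replicate 1 lay within the WT range and mutant replicate 2 below it.

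The ratios within the trehalose complex varied less than that of the phosphoglucomutases. Per base of coding sequence TPS1 exceeded TPS2 by 2.3-fold and 2.84-fold in WT, replicate 1 first, and by 2.32-fold and 2.86-fold in mutant replicates 1 and 2. It exceeded TPS3 by 6.8-fold and 7.61-fold in WT and by 6.6-fold and 7.2-fold in mutant. Neither ratio separated the groups. TSL1 and TPS3, whose proteins were identical at 56.6% of aligned positions, were close to each other. TSL1 took 54.6% and 52.5% of the pair in WT and 51.9% and 46.1% in mutant, the last with a 95% Wilson interval of 42.3 to 49.9%. Here both mutant libraries were below both WT libraries, but narrowly. The intervals of WT replicate 2 (50.8 to 54.2%) and mutant replicate 1 (50 to 53.8%) overlapped.

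The glycogen synthases were both lowest in mutant replicate 2. GSY1 (YFR015C; chromosome VI, minus strand, 174265 to 176391) had 74.8 and 60.6 CPM in WT against 69.9 and 32.6 CPM in mutant, from 2239, 623, 545 and 88 counts. Mutant replicate 1 lay between the WT libraries, and mutant replicate 2 lay well below the other three. The log2 fold change was -0.38 (SE 0.35) with all libraries, -1.05 without mutant replicate 1 and 0.05 without mutant replicate 2, so its direction rested on mutant replicate 2. As plain shares of the total, the 95% Wilson interval of GSY1 was 25.3 to 38.3 CPM in mutant replicate 2 and 66.2 to 78.3 CPM in mutant replicate 1, a gap beyond counting error. GSY2 (YLR258W; chromosome XII, plus strand, 660716 to 662833), known as the main glycogen synthase of cells entering stationary phase, had 59.9 and 50.7 CPM in WT against 49.4 and 36.3 CPM in mutant, a log2 fold change of -0.36 (SE 0.22). Its groups were apart by 1.03-fold. The proteins were identical at 82% of aligned positions, and GSY1 took 55.6% and 54.5% of the pair's counts in WT and 58.6% and 47.3% in mutant.

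GPH1 (YPR160W; chromosome XVI, plus strand, 861306 to 864014), which breaks glycogen down to glucose 1-phosphate, had the second lowest log2 fold change of the set. It had 66.8 and 38.8 CPM in WT against 38.8 and 21.5 CPM in mutant, from 1999, 399, 302 and 58 counts. WT replicate 2 and mutant replicate 1 had the same level to 3 digits, WT replicate 1 was high and mutant replicate 2 was low. The log2 fold change of -0.78 (SE 0.37) was -0.29 without WT replicate 1 and -0.45 without mutant replicate 2.

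**Figure D3:**
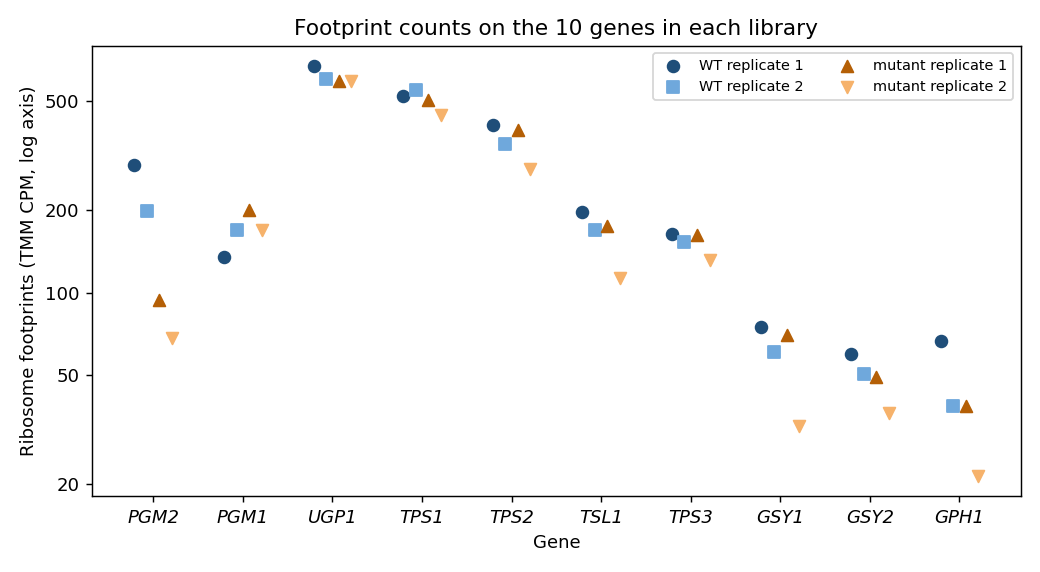
Level of each of the 10 genes in each library in TMM CPM on a log axis, 1 point per library. PGM2 has both mutant points (94.3 and 68.4 CPM) well below both WT points (293 and 199 CPM), while for most other genes mutant replicate 2 alone lies low.

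Set side by side, 9 of the 10 genes had a log2 fold change below 0, as did 51.6% of all genes tested. Their median was -0.25, and -0.17 without PGM2, while that of all genes tested was -0.01. In PGM2, UGP1, TPS1 and GSY2 both mutant libraries were below both WT libraries. GPH1 makes 5 of 10 if its tie to 3 digits is counted by the unrounded values, as against 17.9% of all genes, and 0 of 10 lay above both WT libraries, as against 19.1% of all genes. In 4 of these 5, however, the groups were apart by at most 1.04-fold. Over all 5233 genes tested edgeR called 0% in either direction (smallest adjusted p = 0.755, edgeR). Before adjustment, 90 genes (1.72%) were higher and 195 (3.73%) lower at p under 0.05. DESeq2 called 0 genes higher and 4 lower over all genes (0.0683% of 5854). With WT replicate 1 left out, the edgeR calls came to 0.42% of all genes in the lower and 0.325% in the higher direction. With WT replicate 2 left out they came to 14.9% and 4.35%. In both of these fits WT is a single library, so the spread comes from the mutant pair alone and the lone WT library is assumed to vary like it. Since PGM2 chose the set, none of these calls is read for the 10 genes.

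Mutant replicate 2 was the lowest library for 9 of the 10 genes, all but PGM1, and for 30.7% of all genes tested. WT replicate 1, the odd library, was highest for 8 of the 10, PGM2 among them, and for 1789 of all 5233 genes tested. Relative to each gene's mean over the libraries, the median of the 10 was 0.25 in WT replicate 1, 0.05 in WT replicate 2, 0.06 in mutant replicate 1 and -0.37 in mutant replicate 2 on the log2 scale. WT replicate 2 and mutant replicate 1, libraries of opposite groups, thus lay close together, with a median difference between them of -0.02 over the 10 genes. PGM2 was the exception, with WT replicate 2 above mutant replicate 1 by 1.08. Mutant replicate 2 was also the shallowest library, and the part of depth in these low values was not tested. Without mutant replicate 2, the median of the 10 was -0.07, and 6 of 10 were below 0 (51.9% of all genes), with TPS2, TPS3 and GSY1 at 0.05, 0.04 and 0.05. Without mutant replicate 1 the median was -0.51, with 9 of 10 below 0 (52.6% of all genes). Leaving out WT replicate 1 gave -0.19 and leaving out WT replicate 2 gave -0.35, again with 9 of 10 below 0 (49.4% and 48.6% of all genes).

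**Figure D4:**
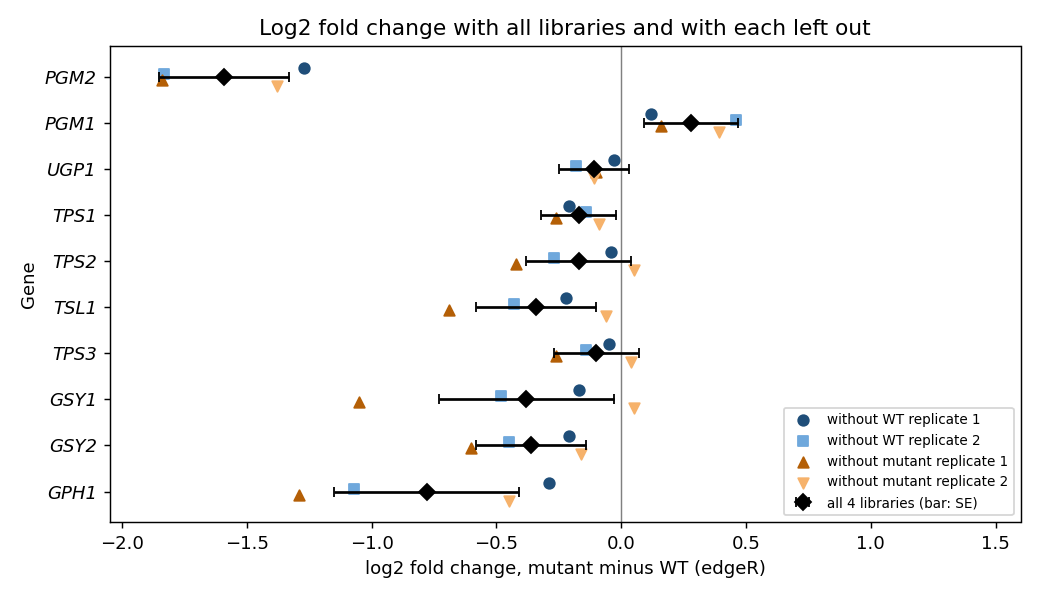
Log2 fold change of each gene, mutant minus WT, with all 4 libraries (diamond, bar 1 SE) and with each library left out in turn. PGM2 stays between -1.84 and -1.27, while TPS2, TPS3 and GSY1 cross 0 without mutant replicate 2.

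Compared per length, as CPM per kilobase of coding sequence, the genes kept a wide order of levels. In WT they ran from UGP1 at 426 ± 30.9 and TPS1 at 361 ± 12.2, through PGM2 at 144 ± 38.9, TPS2 at 141 ± 16.1 and PGM1 at 88.9 ± 14.5, to TSL1 at 55.6 ± 5.74, TPS3 at 50.2 ± 2.28, GSY1 at 31.8 ± 4.73, GSY2 at 26.1 ± 3.07 and GPH1 at 19.5 ± 7.31 (SD, n = 2 each). The neighbours PGM2 and TPS2, TSL1 and TPS3, and GSY2 and GPH1 overlapped between libraries. In mutant UGP1 (395 ± 0.908) and TPS1 (320 ± 27.4) again came first, followed by TPS2 (126 ± 29.4) and PGM1 (108 ± 12.3), and PGM2 stood at 47.6 ± 10.7, next to TPS3 at 46.6 ± 6.82 and TSL1 at 43.8 ± 13.5. GSY1 (24.1 ± 12.4), GSY2 (20.2 ± 4.39) and GPH1 (11.1 ± 4.52) were again the lowest. There PGM2 and TPS3, TPS3 and TSL1, TPS2 and PGM1, and GSY1 and GSY2 overlapped. The change of place between the phosphoglucomutases was the main difference between the orders.

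The 5 genes outside the set with levels most like PGM2 over the 4 libraries were YCL041C, PMT7, PEX31, CYB2 and KHA1. Likeness was the Euclidean distance between log2 levels centred on each gene's mean, over the 4593 genes outside the set that averaged 100 or more counts, and the 5 distances were 0.43, 0.49, 0.55, 0.57 and 0.60. CYB2, the L-lactate dehydrogenase of the mitochondrial intermembrane space, had 96.6 and 64.8 CPM in WT against 47.9 and 31.4 CPM in mutant. PMT7, a putative protein mannosyltransferase, had 30.7 and 12.8 CPM in WT against 7.7 and 5.55 CPM in mutant. All 5 had the same order of libraries as PGM2, with WT replicate 1 highest and mutant replicate 2 lowest. As they were picked for likeness over these same libraries, the shared order follows from the choice and is no separate result. The ID YCL041C has no entry in the reference annotation used here. Within the set GPH1 was nearest to PGM2, at a distance of 0.83, and PGM1 farthest, at 1.98.

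Genes from 6 lists drawn up by function around the pathway (70 measured) and the 10 chaperones of the endoplasmic reticulum were tested over all genes with edgeR, and 0 of the 80 passed the adjusted threshold in either direction (0% of all genes). At p under 0.05 before adjustment (edgeR) 18 of the 80 were lower and 0 higher, where the shares over all genes were 3.73% and 1.72%. Without the chaperones, 11 of the 70 were lower. All these lists were chosen with earlier results of these data known. DESeq2 called 0 of the 80. Of the 18, 7 were chaperones and 3 were listed as UDP-glucose users. Another 6 were general stress genes, 1 a trehalase and 1 a gene of hexose phosphate entry. WT replicate 1 was highest for all 10 chaperones, all 7 measured genes listed as UDP-glucose users and all 3 trehalases. It was also highest for 16 of 24 general stress genes and 2 of 10 genes of hexose phosphate entry. Over all genes tested it was highest for 1789 of 5233. Of 14 measured genes for other enzymes and regulators of glycogen, 6 lay above 0 and 8 below, with a median log2 fold change of -0.06. PIG2, a targeting subunit of the Glc7 phosphatase, had 22.4 and 20.5 CPM in WT against 15.4 and 15.5 CPM in mutant (log2 fold change -0.48, SE 0.20; edgeR adjusted p = 0.755). IGD1, an inhibitor of the debranching enzyme, had 37.8 and 31.7 CPM in WT against 27.6 and 16.6 CPM in mutant. GDB1, the debranching enzyme itself, had 15.1 and 13.9 CPM in WT against 11.6 and 7.4 CPM in mutant. GLC8, a regulator of Glc7, had 158 and 163 CPM in WT against 143 and 120 CPM in mutant. In these 4 of 14 genes the mutant libraries were below both WT libraries (17.9% of all genes), and in 3 of them mutant replicate 2 was lowest. In 3 others, named after their values were seen, the mutant libraries were above both WT libraries (19.1% of all genes). GAC1, a targeting subunit of Glc7, had 6.38 and 4.18 CPM in WT against 6.67 and 7.03 CPM in mutant. GLC7 itself had 319 and 358 CPM in WT against 376 and 367 CPM in mutant, and PCL8, a cyclin of the kinase Pho85, had 21 and 24.4 CPM in WT against 25.9 and 26.3 CPM in mutant. SGA1, a glucoamylase known from sporulation, had too few counts to be tested.

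Of the 3 trehalases, which split trehalose into glucose, all lay below 0, were lowest in mutant replicate 2 and were highest in WT replicate 1. ATH1, the acid trehalase, had 7.96 and 4.86 CPM in WT against 3.21 and 2.96 CPM in mutant (log2 fold change -1.06, SE 0.38, edgeR adjusted p = 0.755). Its mutant levels rest on 25 and 8 counts. The log2 fold change of ATH1 was -0.63 without WT replicate 1 and -1.02 without mutant replicate 2. The neutral trehalases NTH1 and NTH2 had log2 fold changes of -0.19 and -0.08, with overlapping groups.

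The 10 measured genes of hexose phosphate entry and branches had a median of -0.01, with 5 on each side of 0. GLK1, the glucokinase, had 1155 and 1209 CPM in WT against 960 and 872 CPM in mutant (log2 fold change -0.37, SE 0.14; edgeR adjusted p = 0.755), with 5.35% of its 28-base words also found in another gene. EMI2, a glucokinase and paralog of GLK1, had 253 and 259 CPM in WT against 229 and 140 CPM in mutant. For PGI1, the glucose 6-phosphate isomerase, and HXK1, a hexokinase, the log2 fold changes were -0.22 and -0.25. GAL1, GAL7 and GAL10, which feed galactose into glucose 1-phosphate, had at most 16 counts in any library and were not tested.

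The genes listed as UDP-glucose users were high in the same library as the chaperones, WT replicate 1. A place on this list does not show that each product uses UDP-glucose. All 7 measured genes lay below 0, with a median of -0.86, but all 7 were also highest in WT replicate 1. So were the 10 chaperones of the endoplasmic reticulum, whose median was -0.92, and 1789 of all 5233 genes tested. Without WT replicate 1 these medians were -0.06 and -0.29. FKS1, a subunit of glucan synthase, had 1185 and 385 CPM in WT against 335 and 316 CPM in mutant, and its paralog GSC2 had 116 and 45.2 CPM in WT against 26.2 and 24 CPM in mutant. KRE6 and KRE5, which act in synthesis of cell wall glucan, had log2 fold changes of -0.86 and -1.08. FKS3 had too few counts to be tested.

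Among regulators of these genes the differences were small. The 12 genes, among them the kinases of the protein kinase A pathway, had 6 values on each side of 0 and a median of 0.01, and in none of them were the groups apart. TPK2, a catalytic subunit of protein kinase A, had the smallest unadjusted p (log2 fold change -0.19, SE 0.20; edgeR adjusted p = 0.865), followed by RAS2 at 0.10, YAK1 at -0.10 and RIM15 at -0.06. MSN2, chosen for its role after its values were seen, had 61.2 and 76.6 CPM in WT against 71.7 and 69.6 CPM in mutant.

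General stress genes outside the set were lower in the mutant at the median, by an amount that depended on WT replicate 1. Of 24 measured, 5 lay above 0 and 19 below, with a median of -0.38, which was -0.16 without WT replicate 1. Their median deviation from the mean of the libraries was 0.37 and -0.01 in WT, replicate 1 first, as against -0.12 and -0.21 in mutant. Mutant replicate 2 was lowest for 12 of the 24 (30.7% of all genes). WT replicate 1 was highest for 16 of the 24, and for 1789 of all 5233 genes tested. RTN2, a reticulon-like protein of the endoplasmic reticulum, had 4.81 and 2.04 CPM in WT against 0.77 and 0.74 CPM in mutant (log2 fold change -2.22, SE 0.65, edgeR adjusted p = 0.755). Its mutant levels rest on only 6 and 2 counts, so the size of this change is uncertain. OM45, an outer mitochondrial membrane protein, had 71.7 and 69 CPM in WT against 50.8 and 37 CPM in mutant, so that its WT libraries were close together. DCS2 and YGP1 had log2 fold changes of -1.37 and -1.68, from only 5 and 17 counts in mutant replicate 2. These 4 genes were named for the smallest unadjusted p of the list. In 9 of the 24 the mutant libraries were below both WT libraries (17.9% of all genes), and in 2 above both (19.1% of all genes). The 5 genes above 0, named after their values were seen, were SSA4 (0.40), HSP26 (0.30), GND2 (0.23), HSP78 (0.17) and PNC1 (0.03). TKL2 had too few counts to be tested.

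**Figure D5:**
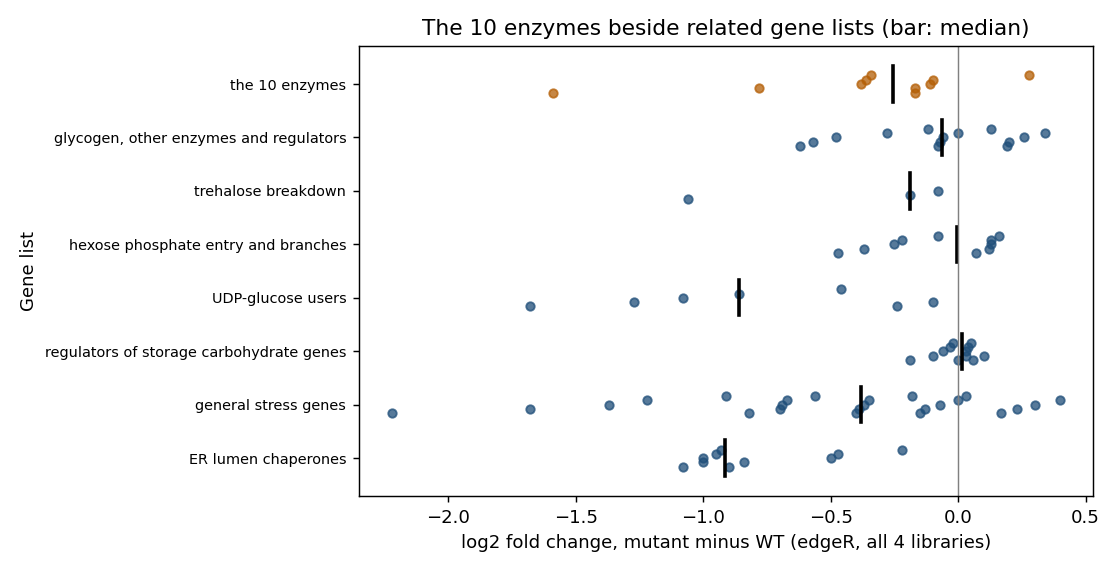
Log2 fold change of every measured gene in the set of 10 and in 7 related lists, with the median as a bar. PGM2 at -1.59 stands away from the other 9 genes of the set, and the lists of UDP-glucose users and endoplasmic reticulum chaperones have medians of -0.86 and -0.92.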

How the data were processed

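The table the authors deposited gives, for each coding sequence and library, a raw count of footprints. Bowtie2, DESeq2 and sacCer3 are named, per the submitters' processing notes. Not given in the sources used here are versions, the counting tool, the strand setting and the handling of reads with several matches. Tabs were doubled in every line but the header, and header names were given to the filled fields in order, a reading on which all library assignments depend. Of 6600 rows, 5917 matched the RefSeq annotation.

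The test was the two-sided quasi-likelihood test of edgeR 4.0.16 (glmQLFit, glmQLFTest; R 4.3.3) on TMM-normalized libraries. The filter filterByExpr, with a minimum count of 10 and a minimum total of 15, kept 5233 genes, over which p-values were adjusted by Benjamini-Hochberg (threshold 0.05). The SE is the log2 fold change divided by the square root of F. Centred levels are log2 CPM with a prior count of 2. The script was tested on simulated data with the same dispersion for every gene and no outlying library. That checks the code and does not measure power in these data. DESeq2 1.42.0, its size factors in edgeR, no filter, a replicate block and leaving out each library were the alternatives. No pair of libraries matched within sampling noise (chi-square per degree of freedom at least 9.98). The 95% Wilson intervals reflect counting error alone, because without molecular identifiers PCR copies are counted too.

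The genes and lists were chosen with earlier results of these data known. Named were the 10 genes, OAZ1, KAR2 or its list, the 4 genes per related list with the smallest unadjusted p, any past the threshold, and the 5 most like PGM2. Python 3.11.15, NumPy 2.4.6, pandas 2.3.3, SciPy 1.17.1 and matplotlib 3.10.9 were used.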

Additional observations from a re-analysis of the deposited data

How the results depend on the processing

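Of 80 alternative values for the 10 genes, 78 moved by less than the SD between replicates. TSL1 and GSY1 moved further, to -0.69 and -1.05 without mutant replicate 1. With 2 libraries a group, leaving out 1 can hardly shift a value beyond that SD, so the count of 78 is no test of stability. GPH1, counted among the 78, went from -0.78 to -0.29 without WT replicate 1 and to -1.29 without mutant replicate 1. The median of the 10 was between -0.51 (without mutant replicate 1) and -0.07 (without mutant replicate 2) when a library was left out. Calls over all genes were 0 higher and 0 lower with all libraries. Leaving out a library gave 0 to 228 higher and 0 to 780 lower: 17 and 22 without WT replicate 1, 228 and 780 without WT replicate 2, and 0 and 0 without either mutant library. DESeq2 called 4 lower and 0 higher. In the related lists 0 genes were called higher under any alternative run, and 0 to 25 were called lower when a library was left out: GSC2 without WT replicate 1 and 25 genes without WT replicate 2. The median of the glycogen list crossed 0 without WT replicate 1 (0.02) and without either mutant library (0.05 each). The cause was not tested. Replicate numbers did not pair the libraries, deviations of replicate 1 correlating at 0.08 across 4603 genes between groups. With a replicate block the median of the 10 was -0.28, PGM2 stayed at -1.59 and 0 genes were called. Counting only words found in a single gene could not move the 12 paralog ratios, as none of the genes share 28-base words, and is no test of them. The 58 to 1599 counts of the 10 genes in mutant replicate 2 limit their precision there.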
